A study of Setaria viridis with 23 samples.

Results

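SvSi1 (Sevir.4G289400.1), SvMADS4 (Sevir.3G242100.1) and SvSl1 (Sevir.5G086100.1) are 3 of the 35214 genes in the count table of Setaria viridis inflorescence development. They were chosen by name and identifier, SvSi1 and SvMADS4 as B-class MADS-box genes and SvSl1 as the C2H2 zinc finger gene named with them, and all 3 passed the filter on low counts that left 21180 genes for testing. The study used the A10.1 accession, a reference genotype of this wild grass, with no mutant and no treatment. Inflorescence primordia were dissected by hand at 6 stages, given in days after sowing (DAS), and several primordia were pooled for each library. Each stage had 4 libraries except 12 DAS, which had 3 (replicates 1, 2 and 4), and the others were 10, 14, 15, 16 and 18 DAS. In the study's morphological account, the inflorescence meristem had formed at 10 DAS, branches were being initiated at 12 and 14 DAS, spikelet meristems and bristles differentiated at 15 and 16 DAS, and floral organs developed at 18 DAS. The data compare whole primordia across these stages, so fewer cells of a type and less RNA per cell cannot be told apart.

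B-class genes encode MADS-domain transcription factors of 2 related lineages, named after APETALA3 (AP3) and PISTILLATA (PI) of Arabidopsis, whose proteins act as AP3-PI heterodimers. They specify petals and stamens in Arabidopsis, and in grasses lodicules and stamens. SvSi1 is the homolog of maize silky1, the AP3-like gene of maize, and SvMADS4 is the homolog of rice OsMADS4, a PI-like gene. Grasses carry another PI-like lineage, that of rice OsMADS2, and its S. viridis member (Sevir.5G410100.1, called the OsMADS2 homolog below) is described here as the closest family member. SvSl1 carries the name of rice STAMENLESS1, a C2H2 zinc finger gene related to Arabidopsis JAGGED. In rice, loss of STAMENLESS1 alters lodicules and stamens, and the rice B-class gene SPW1, which is AP3-like, is reduced in the mutant.

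Library depth ran from 7630728 to 24467483 counts, with replicates 1 and 2 of 15 DAS the shallowest. These 2 libraries were also the only ones whose nearest library by rank correlation came from another stage, 16 DAS. Sequencing was paired-end up to 14 DAS and single-end from 15 DAS on, so run and stage cannot be told apart between 14 and 15 DAS, and later stages are compared with earlier ones across that step as values only. The summed level of 5 meristem and inflorescence markers lay between 199 and 349 CPM at 10 DAS, between 411 and 538 CPM at 12 DAS and between 543 and 1094 CPM from 14 DAS on. SvKn1 and SvRs1 made up most of it at 10 and 12 DAS, where the branch and spikelet markers SvBd1 and SvRa1 were at or near 0. CPM is the count scaled to an equal library total after TMM scaling, which corrects for library composition. It is not divided by transcript length, so levels of different genes are not compared. Tests are edgeR quasi-likelihood tests with Benjamini-Hochberg adjustment over all 21180 genes, called at an adjusted p under 0.05, and the p-values measure the spread between pools of primordia.

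SvSi1, the AP3-like gene, was at or near the limit of detection up to 16 DAS, except in 1 library of 15 DAS, and abundant at 18 DAS. At 10 DAS its counts were 1, 1, 4 and 1 in replicates 1 to 4. At 12 DAS they were 1, 3 and 0, and at 14 DAS 0, 0, 0 and 2. None of these 11 libraries held more than 4 reads of the gene. At 15 DAS the counts were 1, 1, 5 and 20 in replicates 1 to 4, and at 16 DAS they were 1, 3, 4 and 3. At 18 DAS they were 328, 460, 159 and 380. The lowest library of 18 DAS therefore held 159 reads, against at most 20 in any earlier library, and the groups did not overlap. Of all genes tested, 20.3% were higher without overlap at 18 than at 16 DAS and 17.2% at 18 than at 15 DAS.

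In CPM, the stage means of SvSi1 were 0.101 ± 0.095 (10 DAS), 0.096 ± 0.122 (12 DAS), 0.028 ± 0.057 (14 DAS), 0.475 ± 0.605 (15 DAS), 0.203 ± 0.098 (16 DAS) and 22.5 ± 7.26 (18 DAS), each with its SD over 4 libraries, or 3 for 12 DAS. In the order of these means only 18 DAS stood apart from the next stage, and the ranges of all other neighbours in the order overlapped. A count of 3, a floor set by choice, corresponded to 0.120 to 0.233 CPM in the libraries of 10, 12 and 14 DAS. A level below the floor in a single library rested on fewer than 3 reads. With 7, 4 and 2 reads in all at 10, 12 and 14 DAS, this depth could not show a difference among these stages, and SvSi1 did not pass the filter when only these stages were fitted.

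**Figure D1:**
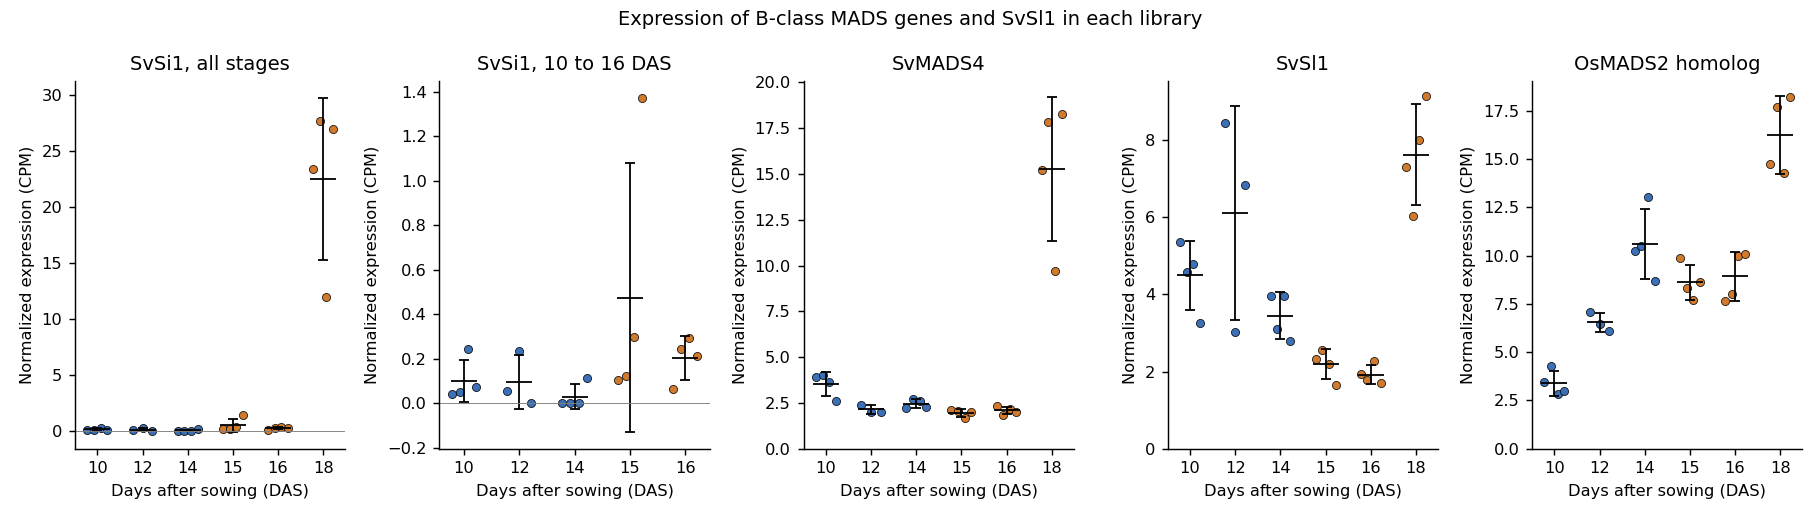
Normalized expression in CPM (vertical axes, linear, with a separate scale in each panel) against days after sowing for SvSi1, SvMADS4, SvSl1 and the OsMADS2 homolog. Points are single libraries, horizontal bars are stage means with their SD, blue marks the paired-end run and orange the single-end run; the second panel enlarges SvSi1 at 10 to 16 DAS, where 1 library of 15 DAS lies at 1.37 CPM, and at 18 DAS SvSi1 lies between 12.0 and 27.7 CPM.

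Between 18 and 16 DAS, SvSi1 rose by a log2 fold change of 6.77 ± 0.50 (SE), with an adjusted p of 4.15e-09 in edgeR's quasi-likelihood test. This was the 4th highest log2 fold change among the 21180 genes tested, for a gene that passed the filter on low counts only through its 18 DAS libraries. The summed counts were 1327 at 18 DAS and 11 at 16 DAS, a depth-corrected ratio of 116 with a 95% interval of 64.4 to 232 that covers counting error only. Against 15 DAS the log2 fold change was 5.37 ± 0.45 (SE) and the adjusted p 1.24e-08, and without replicate 4 of 15 DAS it was 6.76. Background is high in these comparisons, since 36.5% of all tested genes were called between 18 and 16 DAS (20.2% higher and 16.3% lower) and 42.7% between 18 and 15 DAS (22.1% higher).

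The values at 15 DAS rested on 1 library. Replicate 4 held 20 of the 27 SvSi1 reads of that stage, at 1.37 CPM against 0.106 to 0.298 CPM in the other 3 libraries. The test of 15 against 14 DAS gave a log2 fold change of 3.91 ± 1.03 (SE, adjusted p = 0.00266 by edgeR), where 56.4% of all genes were called and where the sequencing run changed. The 2 reads at 14 DAS set the size of this value poorly, and the ratio of the summed counts was 19.4 with a counting interval of 4.88 to 169. Without replicate 4 of 15 DAS the log2 fold change was 2.52 and the adjusted p 0.0717, so the call was lost. Between 16 and 15 DAS, where 28.6% of genes were called, the log2 fold change was -1.40 ± 0.76 (SE, adjusted p = 0.171 by edgeR). With the 2 shallow libraries of 15 DAS left out it was -1.98 (adjusted p = 0.0415 by edgeR), and without replicate 4 of 15 DAS it was -0.01 (adjusted p = 0.992). In replicate 4 of 15 DAS, SvMADS4 was at 1.99 CPM, against 1.67 to 2.12 CPM in the other libraries of the stage, and SvSl1 was at 1.65 CPM, against 2.21 to 2.56 CPM. Of 14 other floral MADS-box genes, replicate 4 was the highest library for 6 and the lowest for 3. The 6 were SvBde1 and the homologs of OsMADS3 (0.618 CPM, against 0 to 0.424 CPM), OsMADS17 (0.961 CPM, against 0.530 to 0.732 CPM), OsMADS7, OsMADS8 and OsMADS15. The 3 were the homologs of OsMADS58 (0.893 CPM, against 0.955 to 1.27 CPM), OsMADS20 and OsMADS32. Replicate 4 also had the highest sum of 5 leaf markers of the stage, 76.0 CPM against 34.5 to 61.9 CPM, and the part of this in the SvSi1 level was not tested.

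SvMADS4, the PI-like gene, was detected in every library, lowest at 12 to 16 DAS and highest at 18 DAS. Its levels in replicates 1 to 4 were 3.91, 4.02, 3.63 and 2.62 CPM at 10 DAS. At 12 DAS the 3 libraries were at 2.42, 2.02 and 2.01 CPM, below all of those of 10 DAS, as were 11.5% of all genes at this step. At 14 DAS they were at 2.23, 2.73, 2.60 and 2.27 CPM, within a range that overlapped both earlier stages. At 15 DAS they were at 2.12, 2.07, 1.67 and 1.99 CPM and at 16 DAS at 2.32, 1.86, 2.20 and 1.99 CPM. At 18 DAS the levels were 15.2, 17.8, 9.72 and 18.3 CPM. All 4 libraries of 18 DAS lay above all 19 earlier ones, whose highest value was 4.02 CPM. The libraries of 10 to 14 DAS came from the other sequencing run. Of all genes, 20.3% were higher without overlap at 18 than at 16 DAS and 17.2% at 18 than at 15 DAS.

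SvMADS4 rose between 18 and 16 DAS by a log2 fold change of 2.86 ± 0.19 (SE, adjusted p = 4.03e-10 by edgeR), the 131st highest of all genes tested. Its stage means were 15.3 ± 3.93 CPM at 18 DAS and 2.09 ± 0.21 CPM at 16 DAS (SD, n = 4 each). Between 16 and 15 DAS the log2 fold change was 0.11 ± 0.22 (SE, adjusted p = 0.726 by edgeR) and the groups overlapped. At 15 against 14 DAS, across the change of run, it was -0.34 ± 0.21 (adjusted p = 0.168 by edgeR). SvMADS4 was lower at 15 DAS without overlap, as were 21.8% of all genes. Early on, SvMADS4 was lower at 12 and at 14 DAS than at 10 DAS, and at 14 against 12 DAS its log2 fold change was 0.19 ± 0.21 (SE, adjusted p = 0.706 by edgeR). At 12 against 10 DAS its log2 fold change was -0.73 ± 0.21 (SE, adjusted p = 0.0190 by edgeR), in a comparison with 14.4% of genes called (7.75% lower). At 14 against 10 DAS it was -0.54 ± 0.18 (adjusted p = 0.0221 by edgeR), in a comparison with 42.1% of genes called (21.5% lower). Both early calls were near the threshold. The first was lost without replicate 2 of 10 DAS (adjusted p = 0.0526), replicate 2 of 12 DAS (0.0650) or replicate 4 of 12 DAS (0.0828) and in a fit of only those stages (0.0665), and the second without replicate 1 or 2 of 10 DAS (0.0541 and 0.0628) or replicate 1 or 4 of 14 DAS (0.0621 and 0.0521). The test for any difference among 10, 12 and 14 DAS gave an adjusted p of 0.0116 by edgeR, and it stayed past the threshold whichever library was left out.

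The OsMADS2 homolog, which belongs to the other PI-like lineage, rose at both early steps. Its level was 3.39 ± 0.64 CPM at 10 DAS, 6.54 ± 0.50 CPM at 12 DAS and 10.6 ± 1.80 CPM at 14 DAS (SD, n = 4, 3 and 4). The libraries of these 3 stages did not overlap, since the highest of 10 DAS was at 4.27 CPM, those of 12 DAS ran from 6.09 to 7.08 CPM and those of 14 DAS from 8.68 to 13.0 CPM. Of all genes, 11.7% were higher without overlap at 12 than at 10 DAS and 10.0% at 14 than at 12 DAS. It rose by a log2 fold change of 0.94 ± 0.17 at 12 against 10 DAS (SE, adjusted p = 0.000456 by edgeR) and of 0.70 ± 0.16 at 14 against 12 DAS (adjusted p = 0.0100), where 5.27% of genes were called. The later call was lost without replicate 4 of 12 DAS, with an adjusted p of 0.0608. At 15 and 16 DAS the homolog was at 8.62 ± 0.91 and 8.92 ± 1.29 CPM, and at 18 DAS at 16.2 ± 2.03 CPM (SD, n = 4 each). Between 18 and 16 DAS it rose by a log2 fold change of 0.86 ± 0.14 (SE, adjusted p = 8.29e-05 by edgeR), without overlap, as 20.3% of all genes were higher.

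The 2 PI-like genes can be set against each other within a library, where library scaling cancels. The share depends on the lengths of the 2 transcripts, so its size is not compared with an equal split, only between stages. SvMADS4 gave 51.1% ± 4.21 (10 DAS), 24.7% ± 0.80 (12 DAS), 19.0% ± 2.04 (14 DAS), 18.6% ± 1.06 (15 DAS), 19.2% ± 2.96 (16 DAS) and 47.9% ± 4.91 (18 DAS) of their joint counts, with the SD over 4 libraries, or 3 for 12 DAS. The share thus had high values at the first and the last stage only. At 18 DAS the 4 libraries were at 50.8%, 50.2%, 40.6% and 50.1%, against 23.4%, 18.9%, 18.1% and 16.5% at 16 DAS. The exact 95% binomial interval of the lowest library of 18 DAS, 35.1% to 46.2%, lay above that of the highest library of 16 DAS, 16.9% to 30.9%. These intervals cover counting error only. Reads that fit both genes are divided by estimation, which leaves the split of such related genes uncertain. All 23 SvMADS4 values and all 23 SvSi1 values were whole numbers, however, and 8 of the 23 values of the OsMADS2 homolog and 3 of the 23 of SvSl1 were not.

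**Figure D2:**
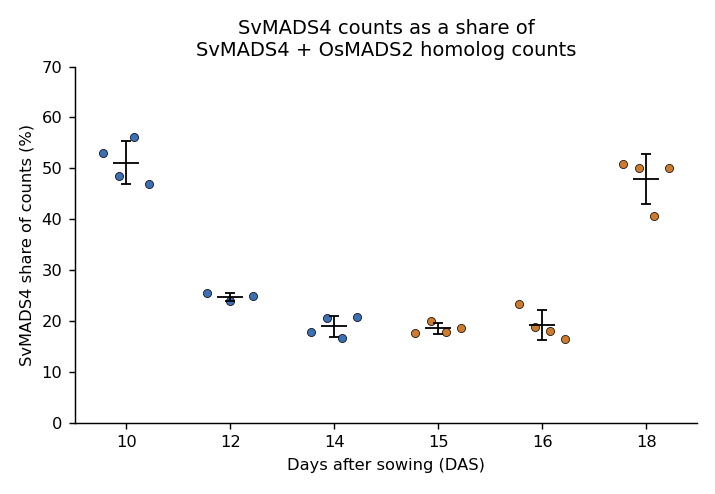
SvMADS4 counts as a percentage of the counts of SvMADS4 and the OsMADS2 homolog together (vertical axis) against days after sowing. Points are libraries, bars are stage means with their SD, and colours mark the 2 sequencing runs (blue paired-end, orange single-end); the share is near 51.1% at 10 DAS and 47.9% at 18 DAS and between 18.6% and 24.7% at the stages between them.

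SvSl1, the C2H2 zinc finger gene, had its highest stage means at 18, 12 and 10 DAS and its lowest at 15 and 16 DAS. The early stages differ from 15 and 16 DAS in sequencing run as well. Its levels were 5.35, 4.57, 4.78 and 3.26 CPM at 10 DAS and 8.43, 3.03 and 6.83 CPM in replicates 1, 2 and 4 of 12 DAS. The libraries of 12 DAS were thus divided, with replicate 2 below every library of 10 DAS. At 14 DAS the levels were 3.95, 3.10, 3.97 and 2.78 CPM, at 15 DAS 2.33, 2.56, 2.21 and 1.65 CPM, and at 16 DAS 1.94, 1.78, 2.27 and 1.70 CPM. At 18 DAS they were 7.29, 6.02, 7.99 and 9.15 CPM. The range at 18 DAS overlapped that of 12 DAS but no other stage, and 20.3% of all genes were higher without overlap at 18 than at 16 DAS.

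Between 18 and 16 DAS, SvSl1 rose by a log2 fold change of 1.98 ± 0.25 (SE, adjusted p = 3.65e-06 by edgeR). Its means were 7.61 ± 1.31 CPM at 18 DAS and 1.92 ± 0.25 CPM at 16 DAS (SD, n = 4 each). The change was the 363rd highest log2 fold change of all genes and the 5th highest of the 65 C2H2 genes tested. Of the 64 other C2H2 genes, 16 were higher and 12 lower at 18 DAS, where 20.2% of all genes were higher and 16.3% lower. Their median log2 fold change was -0.09, against -0.0045 over all genes. At 12 against 10 DAS its log2 fold change was 0.45 ± 0.24 (SE, adjusted p = 0.231 by edgeR), and 0.15 to 0.75 without single libraries, from replicate 1 of 12 DAS left out (adjusted p = 0.783) to replicate 2 of 12 DAS left out (adjusted p = 0.0197). The means of SvSl1 were then lower at each stage up to 16 DAS, and 2 of these steps were called, both close to the threshold. At 14 against 12 DAS the log2 fold change was -0.84 ± 0.24 (SE, adjusted p = 0.0444 by edgeR), and the groups overlapped through replicate 2 of 12 DAS. That call was lost in 16 of the 23 fits that left out a library, with adjusted p-values from 0.00292 to 0.330, with scaling by library size alone (0.0623) and in a fit of only the compared stages (0.0851). At 15 against 14 DAS the log2 fold change was -0.68 ± 0.26 (adjusted p = 0.0294 by edgeR) without overlap, as 21.8% of all genes were lower, across the change of run. It was lost with scaling by library size alone (-0.58, adjusted p = 0.0722) and when any of 4 libraries was left out (replicates 1 and 3 of 14 DAS and 3 and 4 of 15 DAS, adjusted p from 0.0527 to 0.101). At 16 against 15 DAS it was -0.16 ± 0.28 (adjusted p = 0.696 by edgeR). At 14 against 10 DAS, within the paired-end run, it was -0.39 ± 0.23 (adjusted p = 0.177 by edgeR) and the groups overlapped. In that comparison 42.1% of all genes were called.

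F-tests within each run asked whether a gene differed at all among 3 stages. For a difference among 15, 16 and 18 DAS the adjusted p by edgeR was 2.37e-10 for SvSi1, 1.56e-11 for SvMADS4 and 8.11e-07 for SvSl1, and 57.6% of all genes were called. For a difference among 10, 12 and 14 DAS, where 35.7% of all genes were called, SvSl1 had an adjusted p of 0.0269. This was lost without replicate 1 of 12 DAS (0.184), replicate 4 of 12 DAS (0.0971), replicate 2 of 14 DAS (0.0694) or replicate 4 of 14 DAS (0.0770).

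The genes rose by different factors between 18 and 16 DAS. In each library the log2 ratio of 2 genes' counts was formed after 0.5 was added to each count. The SvSi1/SvMADS4 ratio was 0.62, 0.64, 0.30 and 0.56 in the 4 libraries of 18 DAS, against -4.60, -2.75, -2.76 and -3.03 in those of 16 DAS. The difference between the stage means was 3.81, so the AP3-like gene rose by the larger factor. For SvSi1/SvSl1 the difference was 4.66 and for SvSi1/OsMADS2 homolog 5.76. For SvMADS4/OsMADS2 homolog it was 1.94. For SvMADS4/SvSl1 it was 0.85, with values from 0.28 to 1.56 at 18 DAS and from -0.05 to 0.26 at 16 DAS, so the groups nearly touched. In each of these 5 pairs the 4 libraries of 18 DAS lay above the 4 of 16 DAS, and each had an exact two-sided permutation p of 0.0286, the smallest that 70 divisions of 4 against 4 libraries allow, and the same value after Benjamini-Hochberg adjustment over the 5 pairs. With a single library of 16 DAS left out, SvMADS4/SvSl1 had an adjusted p of 0.0571.

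**Figure D3:**
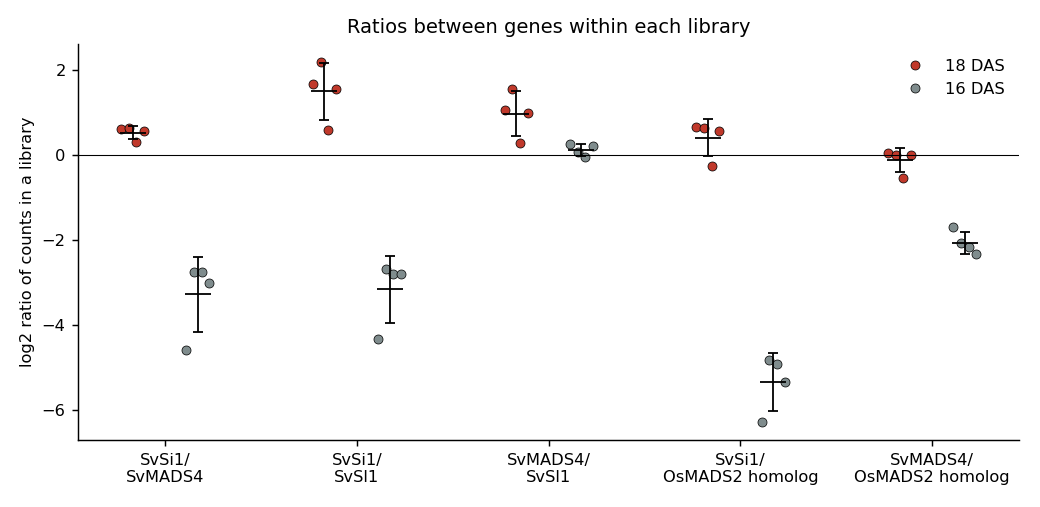
Log2 ratio of the counts of 2 genes in the same library (vertical axis, 0.5 added to each count) for 5 gene pairs, with the 4 libraries of 18 DAS in red and the 4 of 16 DAS in grey. Bars are means with their SD; the stages are farthest apart for the pairs with SvSi1, such as SvSi1/OsMADS2 homolog with a difference of 5.76, and closest for SvMADS4/SvSl1 with 0.85.

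Within 18 DAS, replicate 3 was the low library for the B-class genes. SvSi1 was at 12.0 CPM in it, against 23.4 to 27.7 CPM in the other 3 libraries, and SvMADS4 was at 9.72 CPM, against 15.2 to 18.3 CPM. The OsMADS2 homolog was at 14.2 CPM, against 14.7 to 18.2 CPM. SvSl1 was not low there, at 7.99 CPM against 6.02 to 9.15 CPM. Among 14 other floral MADS-box genes, replicate 3 was the lowest library for 7, and these were the 7 that rose at this stage. They ranged from the OsMADS7 homolog, at 10.5 CPM against a mean of 23.4 CPM in the other libraries, to SvBde1, at 34.4 CPM against 42.4 CPM. Replicate 3 also had the lowest sum of leaf markers of the stage, 31.7 CPM against 44.0 to 52.6 CPM, and the highest sum of inflorescence markers, 699 CPM against 543 to 691 CPM. The part of these differences in the level of the B-class genes was not tested. Without replicate 3, the rise at 18 against 16 DAS came to a log2 fold change of 6.98 for SvSi1, 3.02 for SvMADS4 and 1.95 for SvSl1.

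**Figure D4:**
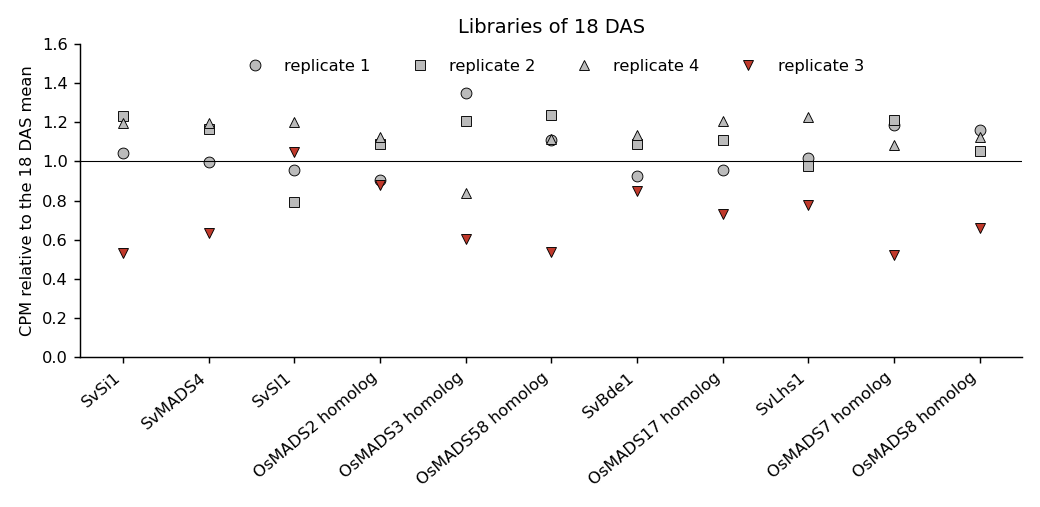
CPM in each library of 18 DAS relative to the mean of the 4 libraries (vertical axis, 1 is the mean) for SvSi1, SvMADS4, SvSl1, the OsMADS2 homolog and the 7 other floral MADS-box genes that rose between 18 and 16 DAS. Replicate 3, in red, is the lowest library for every gene shown except SvSl1, which was at 7.99 CPM there.

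B-class proteins act in complexes with other MADS-domain proteins, among them SEPALLATA-like partners, and the list of 14 floral MADS-box genes holds those classes. Between 18 and 16 DAS, 7 of the 14 rose and 2 fell, where 20.2% of all genes rose and 16.3% fell. The median log2 fold change of the 14 was 1.24. The AGAMOUS-like genes, C-class genes that act in stamens and carpels, both rose, with 3.40 ± 0.45 for the OsMADS3 homolog and 3.30 ± 0.33 for the OsMADS58 homolog (log2 fold change ± SE). Of the AGL6-like genes, SvBde1, the homolog of maize bearded-ear, rose by 2.27 ± 0.24 and the OsMADS17 homolog by 4.30 ± 0.24. Of the 5 SEPALLATA-like genes 3 rose, by 4.57 ± 0.33 for the OsMADS7 homolog, 4.07 ± 0.20 for the OsMADS8 homolog and 3.13 ± 0.17 for SvLhs1. The OsMADS5 and OsMADS34 homologs had log2 fold changes of -0.06 and 0.01 and did not pass the test. The AP1/FUL-like genes, whose relatives act in meristem identity, included the 2 that fell, the OsMADS20 homolog (-1.96 ± 0.51) and the OsMADS15 homolog (-0.56 ± 0.14). SvSi1 thus had the highest log2 fold change of the MADS-box genes tested, and SvMADS4 lay within the range of the 7. SvSi1 had 11 reads in all at 16 DAS and passed the filter on low counts only through its 18 DAS libraries. Its place therefore rests on a level near the floor at 16 DAS. Of 12 other MADS-box genes tested, 6 fell and 6 did not pass the test, where 16.3% of all genes fell. The study described several of these genes from these same libraries, so their direction is not independent evidence.

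**Figure D5:**
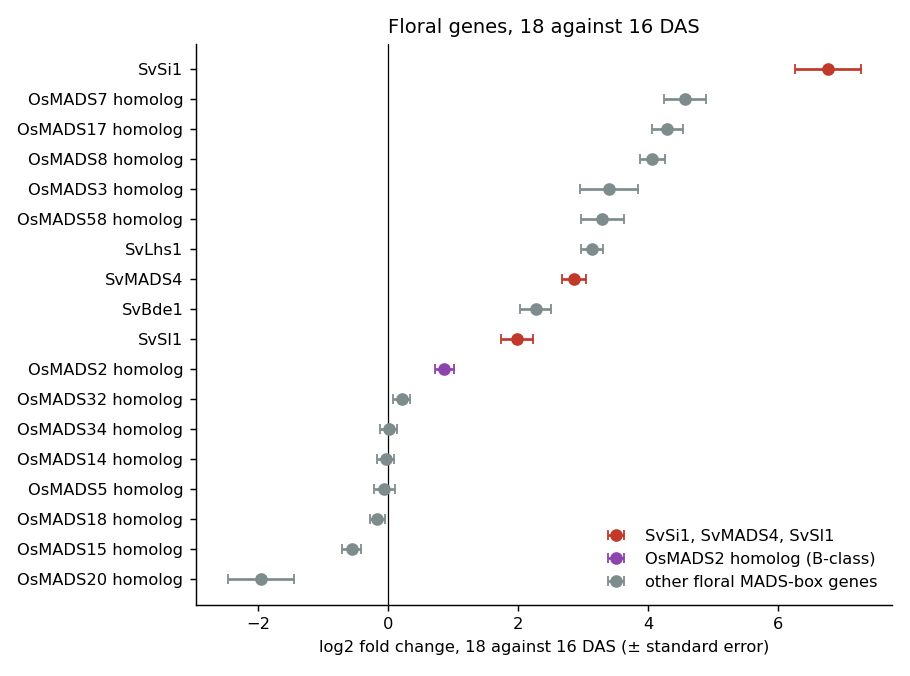
Log2 fold change of 18 against 16 DAS (horizontal axis) with its standard error for SvSi1, SvMADS4 and SvSl1 (red), the OsMADS2 homolog (purple) and 14 other floral MADS-box genes (grey), ordered by value. SvSi1 is highest at 6.77, SvMADS4 at 2.86 and SvSl1 at 1.98 lie among the genes that rose, and the OsMADS20 homolog is lowest at -1.96.

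The list was counted at the earlier steps too. At 12 against 10 DAS 6 of the 14 rose and 1 fell, where 6.61% of all genes rose and 7.75% fell. At 14 against 12 DAS 5 rose and 1 fell, where 2.31% rose and 2.96% fell. Across the change of run, at 15 against 14 DAS, 8 rose and 3 fell, where 29.4% rose and 27.0% fell. At 16 against 15 DAS 3 fell and 11 did not pass the test, where 13.8% of all genes rose and 14.8% fell. Neither of the AGAMOUS-like genes was called at any of these 4 steps.

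The whole course over 6 stages was compared by the root-mean-square difference between centred profiles of stage means. The scale was log2(CPM + 1), and a small value means alike on that scale only. The added 1 compresses changes at levels near or below 1 CPM. A distance therefore also depends on the level of each gene, which is not corrected for transcript length. For SvSi1 the 3 most alike transcription factor genes were the homologs of OsMADS8 (0.28), OsMADS17 (0.29) and OsMADS7 (0.38), and these were also the 3 nearest of all 21179 other genes. SvMADS4 was 26th from SvSi1 (0.82) and SvSl1 1209th (1.33). From SvMADS4, SvSl1 was 591st (0.59) and SvSi1 6040th. For SvMADS4 the most alike transcription factor genes were an SBP-box gene (Sevir.4G200400.1, 0.27) and the C-class homologs of OsMADS58 (0.33) and OsMADS3 (0.37), which ranked 16th, 35th and 66th of all genes. For SvSl1 they were another C2H2 zinc finger gene (Sevir.1G344100.1, 0.20), a gene in the study's AP2 list (Sevir.9G566400.1, 0.29) and a bHLH gene (Sevir.8G145100.1, 0.30), which ranked 14th, 101st and 114th. These distances describe 6 stage means from 2 sequencing runs and carry no test.

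As markers of leaf tissue that might be left on the primordia, 5 photosynthesis genes were followed. Their summed level was 31.7 to 52.6 CPM at 18 DAS and 18.1 to 26.4 CPM at 16 DAS. A PsbP family gene and PSB27 made up most of it, with means of 29.8 and 22.3 CPM at 15 DAS. The Rubisco small subunit, Rubisco activase and a PsbQ-like gene had stage means of at most 1.70 CPM. Between 18 and 16 DAS 2 of the 5, the Rubisco small subunit and PSB27, rose and 3 did not pass the test, where 20.2% of all genes rose. At 15 DAS the sum was 45.1, 34.5, 61.9 and 76.0 CPM in replicates 1 to 4, where SvSi1 was at 0.106, 0.122, 0.298 and 1.37 CPM. At 18 DAS it was 44.0, 52.6, 31.7 and 52.5 CPM, where SvSi1 was at 23.4, 27.7, 12.0 and 26.9 CPM. At 18 DAS the libraries had the same order for the sum and for SvSi1. At 15 DAS replicate 4 was highest and replicate 3 next for both, and replicates 1 and 2 were in opposite order. SvMADS4 and SvSl1 were at 1.65 to 2.56 CPM at 15 DAS. Of the 5 inflorescence markers, SvKn1 (log2 fold change -0.57) and SvRa3 (-2.61) fell between 18 and 16 DAS. The part of either marker list in the rise of SvSi1, SvMADS4 and SvSl1 was not tested.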

How the data were processed

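RNA-seq was made from 23 libraries of dissected A10.1 inflorescence primordia, grouped by the stage in the sample titles. The authors deposited expected counts (estimated counts per gene, not normalized), made with Salmon 0.8.1 per the labels and imported with tximport, with the primary transcripts of the species' genome annotation as targets. Of the values 8.77% were not whole, and all were rounded. Sequences and transcript lengths were not used here.

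Counts were analysed with edgeR 4.0.16 in R 4.3.3, with TMM scaling, filterByExpr (21180 of 35214 genes), a mean for each stage in a fit of all 23 libraries, and quasi-likelihood F-tests. The SE is the absolute log2 fold change over the square root of F. Ratios of summed counts have 95% intervals for counting error. Gene ratios within libraries were tested by exact two-sided permutation in Python 3.11.15.

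Alternatives were DESeq2 1.42.0, scaling by library size, 2 other filters, a replicate block, separate fits of the compared stages, and leaving out each library. Leaving out 2 shallow libraries of 15 DAS together was chosen after seeing the data.

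On simulated data for 18 against 16 DAS (20703 genes, 200 changed 2-fold), edgeR recovered 79% with 3.66% false calls, and DESeq2 81.5% with 10.4%. In the real data 36.5% of genes were called at this step, so these rates need not hold there. Libraries of 1 stage differed beyond sampling noise in all 33 pairs (chi-square from 3.51 to 41.9 per degree of freedom).

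The text names the 3 genes, the OsMADS2 homolog, 14 floral MADS-box genes in groups, the other MADS-box and C2H2 genes as counts, 10 marker genes, and the 3 transcription factor genes most alike to each gene. The members and lists were chosen with earlier results of these data known. Gene names follow the study's annotation. SvBde1 and the OsMADS17 homolog are placed here with the AGL6-like genes, as their maize and rice relatives usually are, whereas the study's text counts them with the AGAMOUS-like genes.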

Additional observations from a re-analysis of the deposited data

Results flagged for a closer look

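Among 25 combinations of gene or share and stage with 4 libraries, 4 had a library far from the other 3 by Dixon's criterion. Chance meets it in about 1 group in 20 for normally distributed values, a rate that does not hold for counts of a few reads. All but 1 of the 4 concern SvSi1 at few reads.

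At 15 DAS, SvSi1 was at 1.37 CPM in replicate 4, on 20 reads, against 0.106 to 0.298 CPM in the other libraries. At 10 DAS it was at 0.242 CPM in replicate 3, on 4 reads, against 0.040 to 0.071 CPM. At 14 DAS it was at 0.113 CPM in replicate 4, on 2 reads, and at 0 in the other libraries. At 18 DAS, SvMADS4 gave 40.6% of the counts of the PI-like genes in replicate 3, against 50.1% to 50.8% in the other libraries.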

How the results depend on the processing

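The rise of SvSi1, SvMADS4 and SvSl1 at 18 against 16 DAS stayed past the threshold in every alternative that gave a value. Leaving out single libraries gave log2 fold changes of 6.45 to 7.01 for SvSi1, 2.76 to 3.02 for SvMADS4 and 1.87 to 2.08 for SvSl1. SvSi1 did not pass the filter of 10 counts in each library, which gave no value for it.

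Early calls were less stable. The difference of SvSl1 among 10, 12 and 14 DAS had an F of 4.53 in a fit of only these stages (adjusted p = 0.0694), and 2.68 to 15.4 without single libraries. Genes called at 14 against 12 DAS numbered 1116, 1676 in a fit of those stages alone and 510 to 1341 without single libraries, and at 12 against 10 DAS 3040 and 1750 to 4037. Of the 14 floral MADS-box genes 1 fell at 18 against 16 DAS in a fit of these stages alone, against 2, and with 10 counts in each library 1 rose and 1 fell. The SvMADS4/SvSl1 difference was 0.66 to 1.08 without single libraries.

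Directions turned only where no call was made. The OsMADS2 homolog at 16 against 15 DAS had a log2 fold change of 0.05, -0.026 with scaling by library size and -0.012 to 0.125 without single libraries (lower without replicate 3 or 4 of 16 DAS). SvSi1 at 12 against 10 DAS was at -0.18, and without single libraries at -1.52 to 0.60 (0.60, 0.034 and 0.46 without replicate 3 of 10 DAS or replicate 1 or 4 of 12 DAS). At 14 against 12 DAS it was at -1.30, and at -3.47 to 0.046 without single libraries, the highest without replicate 2 of 12 DAS. The cause was not tested.

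Whether replicate numbers pair the libraries is not settled. Of 55 same-numbered pairs, 14 had correlated deviations over 0.1 (median 0.03), against 45 of 165 different-numbered pairs (median 0.016). With the replicate block, 7555 genes were called at 18 against 16 DAS, against 7722 without it, SvSi1 had a log2 fold change of 6.76, SvMADS4 2.85 and SvSl1 1.99, and 10 of 23 libraries correlated best with their own number.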
